A study of Mus musculus with 2 samples.

Results

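Lymphatic endothelial barcodes that carried almost no Malat1 RNA and few mitotic transcripts were taken from 2 single-cell libraries of sorted tumor endothelium. They were selected on their own counts: at least 500 genes and under 10% mitochondrial UMIs (unique molecular identifiers, 1 per captured RNA molecule), at least 5 UMIs summed over the lymphatic panel Ccl21a, Prox1, Lyve1, Flt4 and Mmrn1, and at least 2 times as many as over each panel of blood endothelial, melanoma, macrophage and stromal genes. Malat1 had to be under 0.1% of the UMIs, and fewer than 3 of 6 cycling genes (Mki67, Top2a, Cenpf, Birc5, Cdk1, Ube2c) could be detected. The rule kept 421 of 4993 deposited barcodes, 272 of 2491 in the Cre plus library and 149 of 2502 in the Cre minus library.

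The Cre plus mice had the genotype Ifngr1iProx1, a name that joins Ifngr1, which encodes the interferon-γ binding subunit of its receptor, to Prox1, the transcription factor that sets lymphatic identity. The Cre minus mice were Ifngr1WT. Both carried the same intradermal tumor, B16F10 melanoma with ovalbumin and VEGF-C, from 500K implanted cells. The tumors were taken at day 15 and 3 were pooled for each genotype before cells negative for DAPI and CD45 and positive for CD31 were sorted. The sources used here do not give the mice's age, how the Cre is driven or induced beyond the Prox1 in its name, which piece of Ifngr1 it removes, or whether Cre minus mice carry the targeted allele. Each genotype is 1 pool and 1 library, so no test between genotypes was possible. The 95% intervals in brackets cover counting error only, with no part for uneven counts among barcodes or for mice, tumors, sorts or libraries. Where 2 values stand together without a name, the first is Cre plus and the second Cre minus, and a positive log2 ratio means the higher value was in Cre plus; ratios of Malat1-poor to Malat1-rich barcodes are named as such.

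Lymphatic endothelial cells line the vessels that drain tissue fluid and carry antigen and leukocytes to lymph nodes, and they secrete the chemokine Ccl21a to guide dendritic cells. Interferon-γ, made by T and NK cells, binds its receptor on many cell types and induces guanylate-binding proteins, antigen presentation genes and the chemokines Cxcl9 and Cxcl10. Malat1, Neat1 and Kcnq1ot1 are long noncoding RNAs that are kept in the nucleus.

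The Malat1 limit fell in a sparse range. Among non-cycling lymphatic barcodes, Malat1-poor ones were 46.7% [42.5, 50.8] in Cre plus (272 of 583) and 83.2% [76.9, 88.4] in Cre minus (149 of 179), by exact Clopper-Pearson intervals. No Malat1 UMI at all was found in 225 of the 272 members and in 121 of the 149. A share between 0.02% and 0.3% was held by 61 of 583 barcodes (Cre plus) and 18 of 179 (Cre minus), and a share of 0.3% or more by 281 and 29. Blood endothelial barcodes chosen the same way were Malat1-poor in 28.4% [21.4, 36.2] and 36.8% [29.8, 44.1], and melanoma barcodes in 74.6% [69.2, 79.6] and 70.0% [65.7, 74.0]. The libraries thus differed by less in those classes than in the lymphatic one, a difference that has no replicate behind it.

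**Figure D1:**
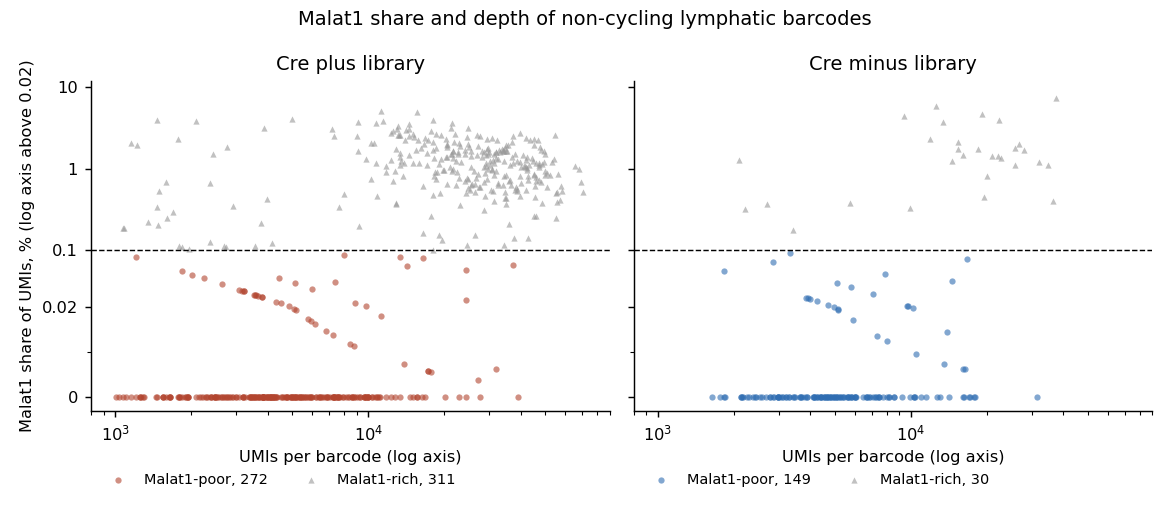
Malat1 share of UMIs (percent, log axis above 0.02) against UMIs per barcode (log axis) for every non-cycling lymphatic barcode of the 2 libraries; the dashed line is the limit of 0.1%. Points gather at 0 and above 0.3%, and the Cre minus library has 30 barcodes above the line against 311 in Cre plus.

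Members were shallow. Their UMIs per barcode ran from 1006 over a median of 4657.5 to 39215 in Cre plus and from 1628 over 4961 to 31582 in Cre minus, with medians of 1389.5 and 1472 genes. Malat1-rich lymphatic barcodes had medians of 25561 and 18691.5 UMIs. The distributions overlapped at the edges, since 18 of 272 and 16 of 149 members had more UMIs than the lower quartile of the Malat1-rich ones. Mitochondrially encoded RNA was a median of 2.07% of UMIs in Cre plus members and 2.16% in Cre minus. Just inside the limits, 8 Cre plus and 5 Cre minus members had a Malat1 share of 0.05% to 0.1%, and 20 and 1 barcodes lay just outside at 0.1% to 0.2%. The panel sum was 5 or 6 in 20 and 9 members, and 20 and 9 otherwise fitting barcodes had 3 or 4. The libraries shared 1 barcode sequence, which was no member.

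Lymphatic genes were present, those outside the rule as well as those in it. Ccl21a was detected in 96.0% of Cre plus and 97.3% of Cre minus members, Lyve1, a hyaluronan receptor, in 80.1% and 83.9%, Flt4, the VEGF-C receptor, in 71.3% and 73.2%, and Mmrn1, a secreted multimerin, in 60.7% and 58.4%. At least 3 of the 5 panel genes were detected in 207 of 272 and 116 of 149 members. Of genes the rule did not use, the mucin-type glycoprotein Pdpn was found in 43.4% and 49.7% of members, the VEGF-C co-receptor Nrp2 in 62.9% and 57.7%, and the matrix protein Reln in 27.9% and 28.2%. In Malat1-poor blood endothelial barcodes, at median depths of 3891.5 and 4134.5 UMIs, Pdpn was in 0% and 2.94% (0 of 44 barcodes allows up to 6.82%), Reln had 0 UMIs in both libraries, and Nrp2 was in 7 of 44 and 17 of 68 barcodes. Prox1 was the weakest panel gene, at 98.4 and 121 CPM (UMIs scaled to an equal total) in members against 748 and 954 CPM in Malat1-rich barcodes.

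Markers of other cells were low but not absent. The blood endothelial gene Flt1 had 4 UMIs in Cre plus members, all in 1 barcode, and 0 in Cre minus, against 372 and 329 CPM in Malat1-poor blood endothelial barcodes. Plvap, which forms the diaphragms of fenestrated endothelium, and Gpihbp1, the capillary anchor of lipoprotein lipase, stood at 270 and 192 CPM in Cre plus members, at 227 and 106 CPM in the Cre minus ones, and at 1013 and 1882 CPM and 936 and 1845 CPM in the blood endothelial barcodes. The pigment gene Dct was in 15.4% and 31.5% of members, against 15.9% and 20.6% of Malat1-poor blood endothelial barcodes, neither of which should make it. The macrophage panel summed to 12 and 23 UMIs, with Lyz2 at 6 and 11. A UMI of that panel or of Cd3e, Cd3d, Trac or Nkg7 was in 13 of 272 and 17 of 149 members. No doublet caller was run. The stromal panel summed to 4 and 1 UMIs and the 8 T and NK genes to 2 and 0 UMIs. Col1a1, a fibroblast collagen, was at 0 in both libraries.

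**Figure D2:**
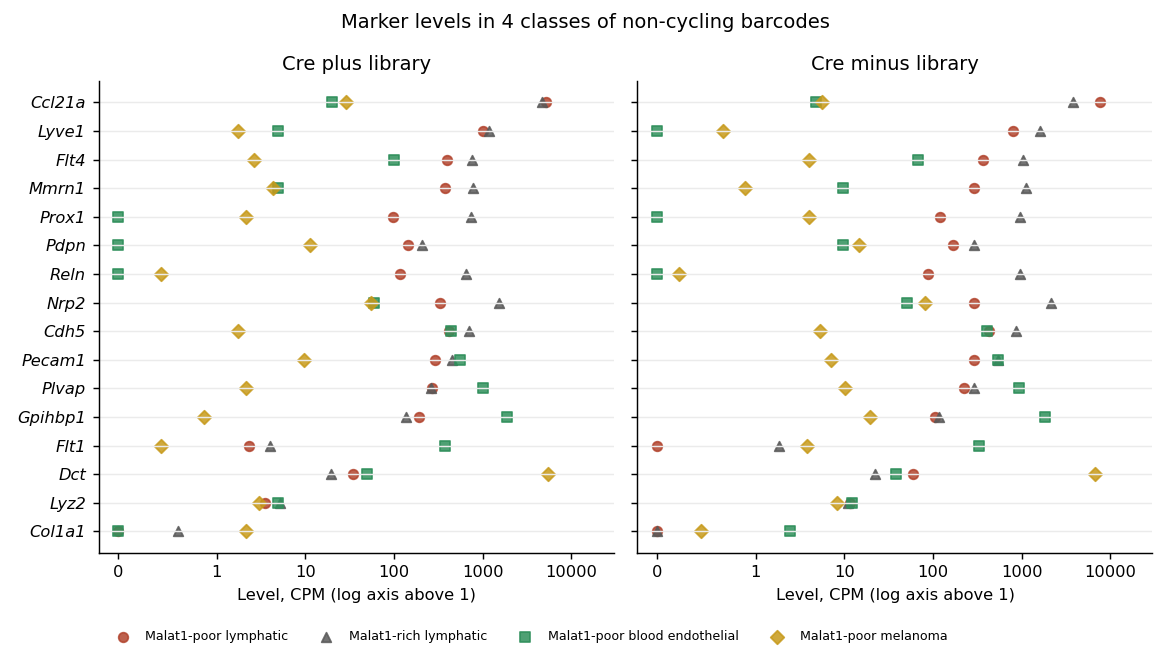
Level of 16 marker genes in CPM (log axis above 1, 0 shown) in Malat1-poor and Malat1-rich lymphatic barcodes and in Malat1-poor blood endothelial and melanoma barcodes of each library. Members lie above the Malat1-rich lymphatic barcodes for Ccl21a, below them for Prox1, Reln and Nrp2, and far below blood endothelium for Flt1. Ccl21a, Prox1 and Flt1 are genes of the rule.

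Ifngr1, the gene named in the genotype (chromosome 10, 19591949 to 19610229, plus strand, mm10), was hardly measurable in these barcodes. It had 13 UMIs in 9 Cre plus members and 18 UMIs in 15 Cre minus members, or 7.57 and 19.1 CPM, a log2 ratio of −1.34 [−2.49, −0.23], which turned to 1.28 [−2.06, 6.90] when each barcode was thinned to 2000 UMIs. The share of members with a UMI was 3.31% and 10.1%, and in Malat1-poor melanoma barcodes, at median depths of 7985.5 and 9488 UMIs, it was 8 of 212 (3.77%) and 17 of 340. The Cre plus share of members, 3.31% [1.52, 6.19], was like that of the deeper melanoma barcodes. The Cre minus share of members, 10.1% [5.74, 16.1], was above that of melanoma. A 3′ tag may also lie outside the deleted piece, so these counts do not check the deletion. Malat1-rich lymphatic barcodes stood at 32.7 and 91.6 CPM. Ifngr2, the signal-transducing chain, had 87.9 and 77.5 CPM in members (0.18 [−0.23, 0.61]; −0.47 [−1.27, 0.34] thinned to 2000 UMIs), so its direction depended on the depth used.

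Across 4619 genes with at least 50 UMIs in members of both libraries together, 361 were at least 1.5-fold higher in Cre plus (7.82%) and 236 at least 1.5-fold lower (5.11%), and the median log2 ratio was 0.03. Without the 13 and 17 members that carried macrophage or T and NK UMIs, 216 genes were higher. Interferon-induced GTPases stood below that background. These large GTPases and immunity-related GTPases attack pathogen-containing vacuoles. Of 18 listed genes 7 reached 50 UMIs, all 7 were lower in Cre plus, 6 by at least 1.5-fold and none higher by that much, with a median log2 ratio of −1.30. Gbp3, Gbp6 and Iigp1 reached that minimum through their Cre minus counts, so the counts do not support a direction by themselves. Summed over all 18, the list had 455 and 828 UMIs, 265 and 879 CPM, a log2 ratio of −1.73 [−1.90, −1.56]. In Malat1-rich barcodes the sum stood at 409 and 798 CPM (−0.96 [−1.11, −0.82]).

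Gbp2 (chromosome 3, 142620602 to 142638008) led the list, with 55 UMIs in 39 Cre plus members and 276 UMIs in 41 Cre minus members, 32.0 and 293 CPM (−3.19 [−3.64, −2.77]). The share of members with a Gbp2 UMI was 14.3% and 27.5%, against 3.30% and 2.94% of Malat1-poor melanoma barcodes. Both the share of barcodes and the level were higher in Cre minus. Iigp1, an immunity-related GTPase, had 47 and 116 UMIs (−2.17 [−2.69, −1.67]), Gbp6 18 and 52 (−2.40 [−3.26, −1.60]) and Gbp3 46 and 62 (−1.30 [−1.88, −0.72]). Thinned to 2000 UMIs per barcode, Gbp2 stood at −2.53 [−3.38, −1.76], Iigp1 at −1.22 [−2.21, −0.27] and Gbp6 at −0.50 [−2.30, 1.35]. Gbp7 stood at 48.3 and 80.6 CPM (−0.74 [−1.21, −0.27]) and Gbp9 at 24.5 and 41.4 CPM (−0.76 [−1.42, −0.09]). Irgm1, a regulator of the other immunity-related GTPases, was the nearest to even at 39.6 and 52.0 CPM (−0.39 [−0.94, 0.17]). Gbp4, Gbp6, Gbp8 and Gbp9 are close paralogs, and Gbp4, Gbp8 and Gbp9 overlap on chromosome 5, as Igtp and Irgm2 do on chromosome 11, so the split of UMIs among them is uncertain.

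The promoters of these genes are shown because interferons act on such genes through short promoter motifs. The 2 patterns below were searched on both strands in the 250 bases before the RefSeq start: TTCNNNGAA, known as the gamma-activated site, and GAAANNGAA, the core of the interferon-stimulated response element; matches may share letters. Capitals mark the matches in the RefSeq promoters (GRCm38.p6) below, each read 5′ to 3′ on the gene's strand and ending at the base before the start. They are Gbp2 (chr3:142620413-142620662, plus strand), Gbp7 (chr3:142530086-142530335, plus strand), Cxcl9 (chr5:92328080-92328329, minus strand) and Cxcl10 (chr5:92348890-92349139, minus strand).
Gbp2: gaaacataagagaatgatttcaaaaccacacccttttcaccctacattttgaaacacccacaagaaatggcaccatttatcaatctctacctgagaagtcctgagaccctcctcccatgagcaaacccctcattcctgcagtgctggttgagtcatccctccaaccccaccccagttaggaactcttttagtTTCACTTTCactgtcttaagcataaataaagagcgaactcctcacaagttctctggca
Gbp7: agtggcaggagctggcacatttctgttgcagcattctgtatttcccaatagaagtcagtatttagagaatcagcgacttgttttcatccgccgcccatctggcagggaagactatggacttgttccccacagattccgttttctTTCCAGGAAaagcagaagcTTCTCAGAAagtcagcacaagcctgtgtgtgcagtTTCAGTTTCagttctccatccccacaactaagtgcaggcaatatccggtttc
Cxcl9: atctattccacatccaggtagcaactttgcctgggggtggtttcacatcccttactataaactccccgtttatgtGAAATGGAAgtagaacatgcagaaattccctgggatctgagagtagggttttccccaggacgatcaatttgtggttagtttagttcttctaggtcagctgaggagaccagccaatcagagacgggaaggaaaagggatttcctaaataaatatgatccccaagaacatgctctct
Cxcl10: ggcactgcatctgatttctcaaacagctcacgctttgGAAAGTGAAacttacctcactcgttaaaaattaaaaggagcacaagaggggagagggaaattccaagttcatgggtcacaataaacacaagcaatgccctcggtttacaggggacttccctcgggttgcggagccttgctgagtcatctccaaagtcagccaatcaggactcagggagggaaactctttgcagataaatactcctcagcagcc

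Distances are from the RefSeq start. For Gbp2 it lies downstream of the GENCODE gene start given above, so the end of the printed stretch, with the match, falls within the GENCODE gene. The response element core began 58 bases before the RefSeq start in Gbp2, 175 in Cxcl9 and 213 in Cxcl10. Gbp7 held both patterns, gamma-activated sites at 106 and 87 and a response element core at 52. Of 32851 promoters of this length, 7.02% held the first pattern and 7.13% the second. The 11 GTPase genes with an entry had 12 promoters, of which 6 held the gamma-activated site and 10 the response element core. For MHC class I genes these counts were 1 and 4 of 18 promoters, for the type I interferon response 4 and 10 of 22, for chemokines 0 and 2 of 8, and for lymphatic identity genes 1 and 0 of 10. A match is a string of letters in this window and says nothing of binding in these cells.

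MHC class II genes, whose products show peptides to CD4 T cells, were nearly absent from Cre plus members. Only 2 of 11 listed genes reached 50 UMIs, both through their Cre minus counts, so their direction is a description. Cd74, the invariant chain, had 4 UMIs in 4 Cre plus members and 151 UMIs in 24 Cre minus members, 2.33 and 160 CPM (−6.10 [−8.00, −4.72]). It is 1 of the 12 genes set aside as possible free RNA when genes were named by size, since members of both libraries held under 10% of its level in another cell class, here macrophage barcodes with 4763 and 4125 CPM. The part of free RNA in its counts was not tested. H2-Ab1, the class II beta chain, had 8 and 44 UMIs (−3.33 [−4.62, −2.22]). Summed over the list the levels were 12.2 and 273 CPM (−4.48 [−5.20, −3.84]). Malat1-rich barcodes showed less of a gap, with 110 and 179 CPM (−0.70 [−1.01, −0.39]). Ciita, the coactivator that switches class II genes on, had 0 and 1 UMIs, which allows no ratio. Cd74 UMIs were in 1.47% and 16.1% of members, in 9.09% and 2.94% of Malat1-poor blood endothelial and in 72 of 212 and 56 of 340 Malat1-poor melanoma barcodes. The Cre minus share in members was thus above that of blood endothelium at like depth and like that of melanoma at higher depth.

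Chemokines went the same way in members. The 10 listed genes summed to 68.1 and 524 CPM (−2.94 [−3.25, −2.65]), and to 67.1 and 178 CPM (−1.41 [−1.77, −1.05]) without barcodes that carry Cxcl9. Of the 4 that reached 50 UMIs, Cxcl9, Ccl5 and Cxcl10 did so through Cre minus alone, so their direction is a description. Cxcl9, which attracts T cells through Cxcr3 (chromosome 5, minus strand), had 1 UMI in Cre plus members against 184 in Cre minus members, 0.582 and 195 CPM (−8.39 [−13.70, −5.89]). Cxcl10, the second Cxcr3 ligand of this list, had 2 and 58 UMIs (−5.72 [−8.80, −3.81]), and Ccl5, which attracts T cells and monocytes, 1 and 69 (−6.97 [−12.30, −4.45]). Ccl2, which attracts monocytes, had 95 and 166 UMIs (−1.67 [−2.05, −1.30]). In Malat1-rich barcodes the 10 genes summed to 210 and 170 CPM (0.30 [0.00, 0.62]), so the sum was not lower in Cre plus there. Cxcl9 was lower there too, with 3 and 54 UMIs, and Cxcl10 had 29 and 4 UMIs (−1.07 [−2.58, 0.90]). Ccl2 was higher in Cre plus (1.71 [1.19, 2.29]), and Ccl5 had 23 and 0 UMIs. Malat1-poor blood endothelial barcodes carried Cxcl9 in both libraries, 264 UMIs in 12 of 44 barcodes of Cre plus, 87 UMIs in 17 of 68 of Cre minus. Melanoma barcodes that were Malat1-poor held 2 Cxcl9 UMIs in each library.

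**Figure D3:**
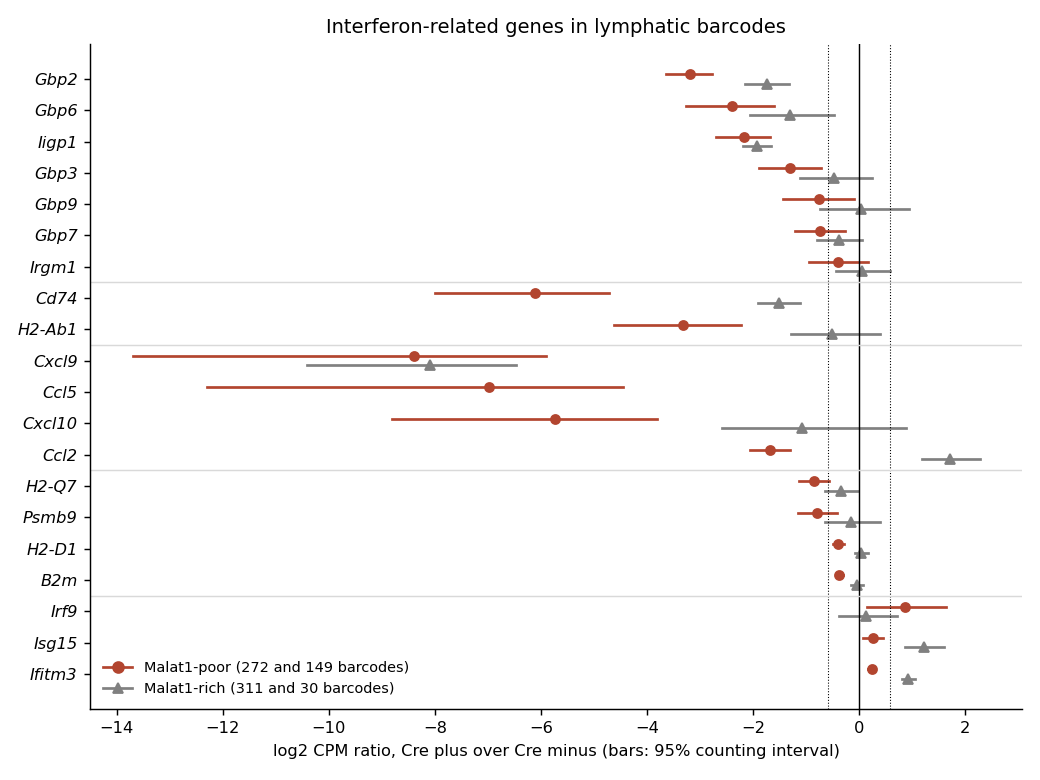
Log2 CPM ratio of Cre plus over Cre minus for 20 interferon-related genes in Malat1-poor (circles) and Malat1-rich (triangles) lymphatic barcodes, with 95% counting intervals; dotted lines mark 1.5-fold, and grey lines separate GTPases, MHC class II, chemokines, MHC class I and signalling or type I genes. In Malat1-poor barcodes the upper 13 genes all lie left of 0, Gbp2 at −3.19 and Cd74 at −6.10, whereas Isg15 and Ifitm3 lie right of 0; Ccl5 has no Malat1-rich value because its Cre minus count there was 0.

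MHC class I and peptide-loading genes were lower by small amounts. Of 19 listed genes 17 were measured, 16 were below 0 and 1 above, and the median was −0.39. At least 1.5-fold lower were 4 of the 17, against 5.11% of all genes. B2m, the light chain of class I, stood at 2299 and 2972 CPM (−0.37 [−0.44, −0.30]) and was found in 265 of 272 and 146 of 149 members, with a median of 10 and 14 UMIs per barcode. The heavy chain H2-D1 stood at 1153 and 1505 CPM (−0.38 [−0.48, −0.28]) and H2-K1 at 593 and 788 CPM (−0.41 [−0.55, −0.27]). H2-Q7, a class Ib gene whose UMIs near-identical H2-Q copies may share, stood at 131 and 236 CPM (−0.85 [−1.12, −0.57]; −0.57 without barcodes that carry Cxcl9 and −0.37 [−0.91, 0.17] thinned to 2000 UMIs), and the immunoproteasome subunits Psmb9 and Psmb8 stood at −0.79 [−1.15, −0.42] and −0.45 [−0.69, −0.22]. Psmb9 stood at −0.41 [−0.82, 0.00] without barcodes that carry Cxcl9, and Psmb8 at −0.16 [−0.61, 0.29] thinned and at −0.11 [−0.38, 0.17] in members with none of the 6 cycling genes. Restricted to members with none of the 6 cycling genes, B2m stood at −0.19 [−0.27, −0.11], H2-D1 at −0.15 [−0.26, −0.03] and H2-K1 at −0.18 [−0.33, −0.02]. In Malat1-rich barcodes the summed list stood at 4398 and 4580 CPM (−0.06 [−0.12, 0.00]), and B2m at −0.04 [−0.15, 0.07].

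The list of antiviral genes induced by type I interferons did not stand below 0. Of 27 listed genes 17 were measured, 13 above and 4 below 0, with a median of 0.23. At least 1.5-fold higher were 2 and lower 2, against 7.82% and 5.11% of all genes. Ifitm3, a membrane restriction factor, stood at 3626 and 3059 CPM (0.25 [0.18, 0.31]), and Isg15, a ubiquitin-like modifier, at 408 and 340 CPM (0.27 [0.07, 0.46]). Rtp4, a chaperone of chemosensory receptors, had 63 and 19 UMIs (0.86 [0.10, 1.69]), Zbp1, a nucleic acid sensor, 185 and 154 (−0.60 [−0.92, −0.28]) and Cmpk2, a mitochondrial nucleotide kinase, 30 and 39 (−1.24 [−1.98, −0.52]). Among receptor and signalling genes 7 of 13 were measured, with a median of 0.18, while their sum stood at −0.09 [−0.23, 0.05]. Irf9, a transcription factor of the interferon response, stood at 40.8 and 22.3 CPM (0.87 [0.15, 1.65]) and Jak1 at 200 and 203 CPM (−0.02 [−0.28, 0.24]).

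The interferon-linked RNA of the Cre minus members sat in few barcodes. Of 184 Cxcl9 UMIs 180 were in 10 of 149 barcodes, of 276 Gbp2 UMIs 219 were in 10 (79.3%), and of 151 Cd74 UMIs 125 were in 10 (82.8%). B2m was spread, with 22.4% of its UMIs in the top 10, and Ccl21a had 36.3% there. In Cre plus the top 10 barcodes for Gbp2 held 26 of 55 UMIs. The barcode with the most Cxcl9 held 60 UMIs and that with the most Gbp2 66.

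**Figure D4:**
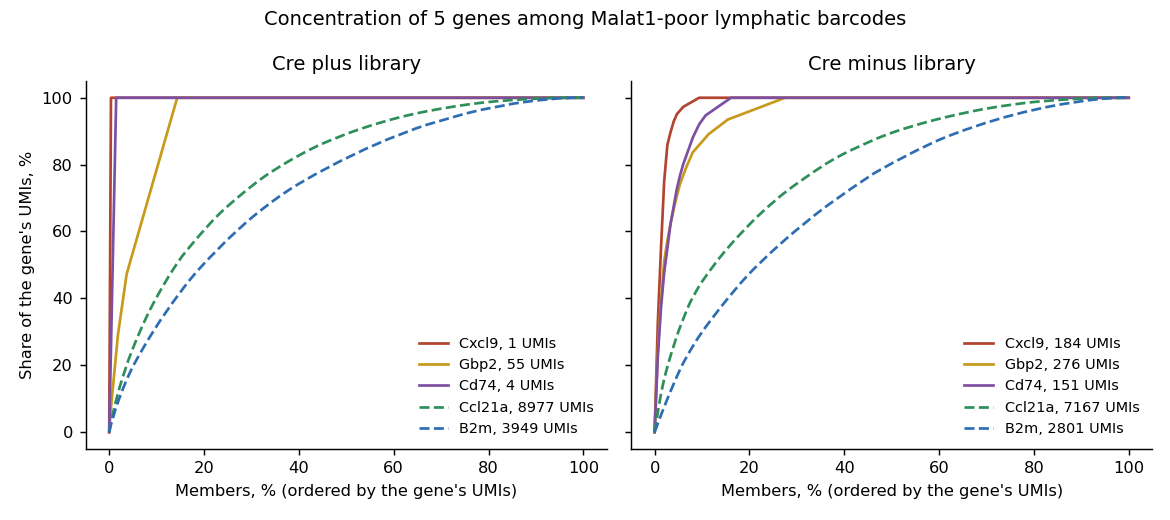
Cumulative share of a gene's UMIs (percent) against the share of members (percent), with barcodes ordered from the highest count of that gene, for 5 genes in each library. In Cre minus Cxcl9, Cd74 and Gbp2 reach 100% after 14, 24 and 41 of 149 barcodes and B2m rises slowly; in Cre plus Cxcl9 and Cd74 rest on 1 and 4 UMIs.

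The 14 Cre minus members with any Cxcl9 UMI, a group picked after their values were seen, are described here without a test. They held 9.52% of the members' UMIs and 46.6% of the GTPase UMIs, at 4302 CPM against 518 CPM in the others (8.30-fold). They held 94.8% of Cxcl10 UMIs and 55.8% of Gbp2 UMIs. MHC class I genes stood at 12093 and 6868 CPM in the 2 sets and type I response genes at 11357 and 5124 CPM. Cd74 differed less, at 267 and 149 CPM. Serping1, the C1 inhibitor of complement, stood at 167 and 16.4 CPM. Lymphatic identity genes outside the rule were lower, at 1538 and 2458 CPM, and Ccl21a stood at 8693 and 7490 CPM. The 14 were no deeper, with a median of 4510 UMIs against 5042, and their median panel sum was 36.5 against 33. Only 1 of them carried a UMI of the macrophage panel or of Cd3e, Cd3d, Trac or Nkg7, and 1 of the 184 Cxcl9 UMIs lay in it.

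With barcodes carrying Cxcl9 left out of both libraries, the GTPase sum stood at 264 and 518 CPM (−0.98 [−1.17, −0.78]) and the GTPase median at −0.66. Gbp7 stood at −0.19 [−0.72, 0.36], Gbp2 at 30.9 and 143 CPM (−2.21 [−2.70, −1.73]), Iigp1 at −1.43 [−2.01, −0.86] and Ccl2 at −1.04 [−1.46, −0.61]. The class II sum stood at 12.2 and 250 CPM (−4.35 [−5.07, −3.70]) and the class I sum at 5563 and 6868 CPM (−0.30 [−0.35, −0.26]). The gap in Gbp2 and Iigp1 was thus smaller without those barcodes, and the class II gap nearly as large.

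Genes outside the interferon lists were named by a fixed size rule, the 12 highest and 12 lowest by the interval bound nearest to 0. Highest in Cre plus was Id1, an inhibitor of basic helix-loop-helix factors and a target of BMP signalling, with 145 UMIs in 39 members against 8 UMIs in 6 (84.4 and 8.49 CPM, 3.31 [2.30, 4.55]). Next came Col15a1, a basement membrane collagen, with 126 UMIs in 59 members and 11 in 8 (2.65 [1.76, 3.69]). Dusp2, a MAP kinase phosphatase, had 122 and 17 UMIs (1.98 [1.24, 2.80]) and Ier2, an immediate-early gene, 115 and 20 (1.66 [0.96, 2.42]). Hilpda, a hypoxia-induced lipid droplet protein, had 161 and 33 UMIs (1.42 [0.87, 2.01]), and Plat, tissue plasminogen activator, 130 and 27 (1.40 [0.79, 2.06]). The other higher genes were Apold1, Pitpnc1, Lipt2, Samsn1, Ptprm and Crybb3, with log2 ratios of 1.43, 1.44, 1.32, 1.35, 1.13 and 1.01. Id1 (1.03 [0.62, 1.48]), Ier2 (1.16 [0.61, 1.77]) and Hilpda (2.60 [1.61, 3.81]) were also higher in Malat1-rich barcodes, whereas the adhesion phosphatase Ptprm was lower there (11863 and 1562 UMIs). Without the members that carried macrophage or T and NK UMIs, Hilpda stood at 0.85 [0.25, 1.48], Samsn1 at 0.68 [−0.04, 1.46], Ptprm at 0.39 [−0.16, 0.95] and Apold1 at 0.32 [−0.45, 1.14]. Thinned to 2000 UMIs, Ptprm stood at −0.44 and Samsn1 at −0.53, so the direction of these 2 genes depended on the depth used. At that depth Dusp2 stood at 0.86 [−0.43, 2.34], Pitpnc1 at 0.15 [−1.41, 1.87], Apold1 at 0.12 [−1.61, 2.05] and Lipt2 at 0.04 [−1.17, 1.33], each from few UMIs.

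The lower genes beside those above included Scd1, the fatty acid desaturase, with 42 UMIs in 33 Cre plus and 102 UMIs in 54 Cre minus members (24.5 and 108 CPM, −2.15 [−2.70, −1.61]). Without the barcodes that carry Cxcl9 it stood at −2.19 [−2.75, −1.65]. Rassf3, a Ras association domain protein, stood at 81.5 and 188 CPM (−1.20 [−1.53, −0.88]), and Dync1li2, a dynein light intermediate chain, at 72.8 and 157 CPM (−1.11 [−1.46, −0.76]). Gxylt1, Ppa1 and Cndp2 stood at −1.06, −1.12 and −1.15. Scd1 and Rassf3 were found in 54 and 73 of 149 Cre minus members, a wider spread than that of Cxcl9.

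Lymphatic identity genes outside the rule were, as a list, near even between the genotypes. Of 13 listed genes outside the rule 11 were measured and none was 1.5-fold higher or lower, with a median of 0.04 and sums of 2391 and 2370 CPM. Nr2f2, the factor that works with Prox1 to set venous and lymphatic fate, stood at 201 and 141 CPM (0.51 [0.22, 0.81]), Thy1 at 360 and 445 CPM (−0.30 [−0.48, −0.12]), Reln at 117 and 87.0 CPM (0.43 [0.05, 0.82]) and Nrp2 at 333 and 289 CPM (0.21 [0.00, 0.42]). In members with no cycling gene detected, Nr2f2 stood at 0.07 [−0.25, 0.40]. Thinned to 2000 UMIs per barcode, Thy1 stood at −0.06 [−0.40, 0.28]. The Nr2f2 difference thus depended on the members used and the Thy1 difference on the depth used. Of the panel genes, which the rule used, Ccl21a stood at 5226 and 7604 CPM and Lyve1 at 1001 and 796 CPM. In members with no cycling gene detected, Prox1 stood at −0.69 [−1.08, −0.31] and Ccl21a at −0.42 [−0.47, −0.37]. Flt4 and Mmrn1 stood at 0.30 [0.09, 0.52] and 0.66 [0.42, 0.91] in those members. Thinned to 2000 UMIs, Prox1 stood at 0.13 [−0.57, 0.87] and Mmrn1 at 0.73 [0.34, 1.14]. The Prox1 difference thus depended on the members and the depth used. In Malat1-rich barcodes the identity sum was 5904 and 7584 CPM (−0.36 [−0.41, −0.32]).

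Collecting vessel and valve genes (4 of 12 measured), the VEGF-C axis (6 of 13) and endothelial junction genes (8 of 16) likewise had no member past 1.5-fold, with medians of 0.00, 0.07 and −0.02 and sums at −0.11 [−0.20, −0.01], 0.04 [−0.06, 0.13] and 0.05 [−0.03, 0.14]. Basement membrane genes had 13 of 14 measured, 2 at least 1.5-fold higher and a median of 0.23, though their sum stood at −0.05 [−0.10, 0.00], with the laminin-binding Nid2 at 157 and 98.7 CPM (0.67 [0.32, 1.02]) and Sparc at 1915 and 2297 CPM (−0.26 [−0.34, −0.18]). Immediate-early genes, which also respond to tissue digestion, had 7 of 14 measured, all above 0 and 3 at least 1.5-fold higher. Their median was 0.55, and 1.31 with equal weight per barcode. Junb stood at 0.73 [0.26, 1.21] and Jun at 0.69 [0.13, 1.28]. Ier2 (115 and 20 UMIs) and Jun (106 and 36) reached the UMI minimum through Cre plus alone, so their direction is a description. Summed over all 14, the log2 ratio was 0.57 [0.40, 0.75]. Of 20 cholesterol synthesis genes 8 were measured, 6 below 0 and 1 at least 1.5-fold lower, the feedback regulator Insig1 with 25 and 30 UMIs (−1.13 [−1.96, −0.31]), and the median was −0.29. Mitochondrially encoded genes were below 0 in all 13, with a median of −0.40, mt-Nd2 at −0.53 [−0.67, −0.40] and mt-Cytb at −0.43 [−0.51, −0.35]. That median was −0.05 in members with a mitochondrial share under 5%, −0.07 in those with no cycling gene, and −0.21 without members that carried macrophage or T and NK UMIs. It was further from 0, at −0.53, in members with a lymphatic panel sum at least 5 times each other panel. Nuclear genes of oxidative phosphorylation (64 of 64) and cytosolic ribosomal protein genes (80 of 83) had medians of 0.08 and 0.00. Beside the counts of these lists, 7.82% of all genes were at least 1.5-fold higher in Cre plus and 5.11% at least 1.5-fold lower. Counts of 1 or 2 in such short lists give no direction.

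Haemoglobin was 0.383% of Cre plus and 0.0312% of Cre minus member UMIs. In Cre plus 1 barcode held 3655 of the 4028 Hbb-bs UMIs, and without it Hbb-bs stood at 218 CPM, against 73.4 CPM in Cre minus without its own highest barcode. Fcer1g, an Fc receptor chain of myeloid cells and also 1 of the 12 possible free RNAs, stood at 76.3 and 21.2 CPM (1.85 [1.16, 2.60]), with 103 of 131 UMIs in 10 Cre plus barcodes, while the macrophage panel in the same members summed to 6.99 and 24.4 CPM and 8 further macrophage genes, Fcer1g among them, to 112 and 61.5 CPM. The part of these genes in the other differences was not tested.

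Levels were compared over depth. Ordered by UMIs into 3 equal groups, Cre plus members had GTPase levels of 263, 343 and 234 CPM from the shallowest to the deepest, and Cre minus members 916, 315 and 1127 CPM. MHC class I stood at 6565, 6444 and 5025 CPM in the first library and 7993, 7456 and 7157 CPM in the second, the higher value in Cre minus in each of the 3. The GTPase gap was thus present in the shallow and deep groups and absent in the middle one. Mitochondrially encoded RNA was highest in the shallow group of each library, at 31989 and 34252 CPM, and lowest in the deep one, at 15828 and 19017 CPM.

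Against Malat1-rich lymphatic barcodes the members held less nuclear-retained RNA and more ribosomal protein RNA. The rule split the 2 groups by their Malat1 share, so the comparison is a description. Neat1, Kcnq1ot1 and the ribosomal protein genes were not in the rule. Over 4495 genes, 482 were at least 1.5-fold higher in members in both libraries (10.7%) and 2180 at least 1.5-fold lower in both (48.5%), with median log2 ratios of −0.65 and −0.72. Nuclear-retained long RNAs other than Malat1 summed to 35.5 CPM in members and 568 CPM in Malat1-rich barcodes of Cre plus, and to 10.6 and 1683 CPM in Cre minus. Neat1, the scaffold of paraspeckles, had 26 and 7 UMIs in members against 2450 and 569 in Malat1-rich barcodes. Kcnq1ot1, the imprinting RNA of the Kcnq1 domain, had 0 UMIs in members and 990 and 151 in Malat1-rich barcodes, at least 68.2-fold and 86.9-fold lower against a floor of 3 UMIs over the group.

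Messages for ribosomes and energy metabolism were higher in members. Cytosolic ribosomal protein genes made up 29.6% and 29.4% of member UMIs, against 14.2% and 6.66% in Malat1-rich barcodes, and 78 of 80 were at least 1.5-fold higher in both libraries. Of the nuclear oxidative phosphorylation genes 47 of 64 were higher in both, and of the glycolysis genes 10 of 13. Over all genes the share higher in both was 10.7%. Gapdh stood at 3285 CPM in Cre plus members and 1161 CPM in Malat1-rich barcodes, and at 3320 and 452 CPM in Cre minus. Mitochondrially encoded RNA stood at 1.99% and 2.34% in members and 1.79% and 2.37% in Malat1-rich barcodes. The ribosomal share was alike in members of both libraries and differed between their Malat1-rich barcodes, of which Cre minus had 30.

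The 10 genes with the clearest higher values by the same bound rule were Cenpb, a centromere protein (278 and 346 CPM in members), Rab13, a Rab GTPase whose message is transported in cells (161 and 172 CPM), Trdc, the T cell receptor delta constant region (140 and 145 CPM), Gapdh, Mif, Prdx5, Nes, the fatty acid carrier Fabp4 (4342 and 4014 CPM), Cyb5r3 and the ferritin light chain Ftl1. Trdc had 240 and 137 UMIs in members, in which the 8 T and NK genes summed to 2 and 0. The 10 clearest lower genes besides Kcnq1ot1 were Zfpm2, Nr6a1, Mdga2, Pde7b, Pde4d, Stox2, Mir99ahg, Psd3 and Nav3. Zfpm2, a cofactor of GATA factors, had 13 and 4 UMIs in members against 5839 and 667 in Malat1-rich barcodes. Pde4d, a cAMP phosphodiesterase, had 12 and 6 against 2658 and 254.

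Those lower genes are long. Kcnq1ot1 spans 93.1 kb, and the other 9 span from 204 kb (Nr6a1) to 1504 kb (Pde4d), whereas the 10 higher genes span 0.888 kb (Mif) to 19.1 kb (Cyb5r3). Over the genes measured in each library, the median log2 ratio of members over Malat1-rich barcodes fell with span. In Cre plus it ran from −0.08 for genes under 5 kb over −0.48 and −1.25 to −2.40 for genes over 100 kb. In Cre minus it ran from 1.28 over 0.48 and −1.11 to −3.06. The gene sets differed, with 1015 and 460 genes under 5 kb and 1445 and 916 over 100 kb. Of those over 100 kb, 36 and 10 had no UMI in members and were measured through Malat1-rich barcodes alone. Genes over 100 kb held 4.58% and 4.32% of member UMIs and 17.5% and 25.3% of those in Malat1-rich barcodes. Across genes Spearman's rho of the ratio with span was −0.53 and −0.74, a description, since genes share libraries and depth. The order was the same in blood endothelial and melanoma barcodes, where genes over 100 kb stood at −2.47 and −2.94 and at −1.53 and −1.27.

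**Figure D5:**
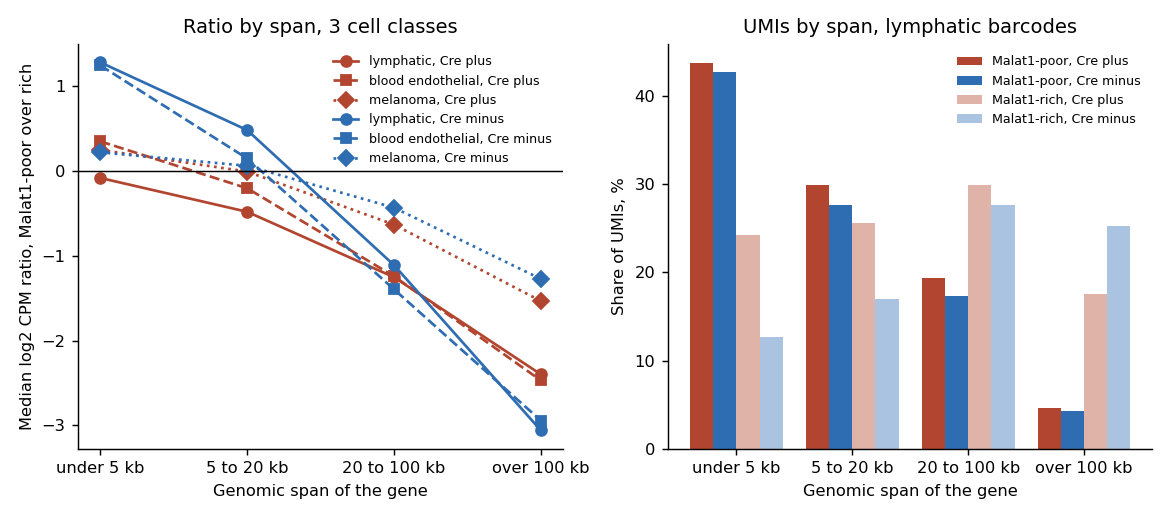
Left, median log2 CPM ratio of Malat1-poor over Malat1-rich barcodes by genomic span of the gene (in kb) for 3 cell classes and 2 libraries; right, share of lymphatic UMIs (percent) by span. All 6 lines fall from short to long genes, and genes over 100 kb hold under 5% of member UMIs.

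The shares also differed between barcodes of like depth, a range chosen after the data were seen. Among barcodes with 5000 to 10000 UMIs, the 91 Cre plus members had 30.8% ribosomal protein UMIs and 4.65 CPM of nuclear-retained long RNAs, and the 9 Malat1-rich barcodes 5.11% and 772 CPM. In Cre minus the 51 members had 29.5% and 11.8 CPM and the 3 Malat1-rich barcodes 9.87% and 999 CPM. Median genes detected in that range were 1798 and 3327 in Cre plus and 1700 and 2907 in Cre minus.

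Lymphatic genes themselves were lower in members. Of 11 identity genes 8 were at least 1.5-fold lower in both libraries and none higher, and all 6 collecting vessel and valve genes were lower, against 48.5% of all genes. As log2 ratios of members over Malat1-rich barcodes, Prox1 (52.7 kb) stood at −2.93 [−3.16, −2.71] and −2.98 [−3.29, −2.68], Reln (460 kb) at −2.47 [−2.68, −2.26] and −3.47 [−3.83, −3.13], and Nrp2 (115 kb) at −2.18 [−2.31, −2.06] and −2.90 [−3.10, −2.71]. Ccl21a, which spans 1.13 kb, was higher in members, at 0.17 [0.14, 0.20] and 0.99 [0.92, 1.06]. Cholesterol synthesis genes were lower in 11 of 14 and basement membrane genes in 11 of 12, beside the same 48.5%. The interferon GTPase sum was −0.63 [−0.77, −0.49] in Cre plus and 0.14 [−0.03, 0.31] in Cre minus. The median over its 7 measured genes was −0.27 and 0.69, against −0.65 and −0.72 over all genes. The class II sum was −3.17 [−3.87, −2.55] in Cre plus and 0.60 [0.26, 0.95] in Cre minus.

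Among members, genes with a mean over 0.1 UMIs were compared at 2000 UMIs per barcode, which left out 34 shallower Cre plus and 5 Cre minus barcodes. Beside haemoglobin, the variance over the mean was highest for Ccl21a in both libraries, at 16.9 and 23.1, with means of 12.2 and 16.6 UMIs and at most 118 and 115 in 1 barcode. Fth1, the ferritin heavy chain, followed at 8.68 and 11.8. Cxcl9 (6.94) and Rsad2, an antiviral enzyme (6.67), were among the 15 most uneven genes of Cre minus. With 1 UMI in Cre plus members, Cxcl9 could not enter the Cre plus comparison. Ifi27l2a, an interferon-induced gene, was among the 15 in both (5.28 and 8.03).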

How the data were processed

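Sorted tumor endothelial cells of 2 libraries, 1 per genotype, were profiled with 10x 3′ kit v3.1, per the labels' protocols. Cell Ranger 7.0.0 and the mm10 build stand in the submitters' processing notes; no source used here gives the annotation. The authors deposited whole-number counts, UMIs per gene and barcode, for 32285 genes. The libraries held 66704257 UMIs (Cre plus) and 76967583 UMIs (Cre minus).

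Members were chosen by the counting rule in the results, without clustering or a doublet caller; the rule of 2 times each other panel limits mixed barcodes. The members, gene lists and comparisons were chosen with earlier results of these data known. UMIs were summed over members per library and scaled to CPM. Ratios have exact conditional binomial intervals and shares exact Clopper-Pearson intervals at 95%, for counting error only. The ratio intervals were checked on gene totals simulated with counting error alone, so the check does not cover uneven counts among barcodes. Barcodes are not replicates, so no p-value was computed.

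Genes needed 50 UMIs over both libraries. Genes named singly were, besides Ifngr1 and the panel, the 12 highest and 12 lowest by the bound nearest to 0 (10 and 10 for Malat1-poor over Malat1-rich), having 100 UMIs or more and detected in 5% of the members of either library. Mitochondrial, ribosomal-protein, haemoglobin, sex-linked marker, unnamed and rule genes and 12 possible free RNAs (under 10% of the level in melanoma, macrophage or stromal barcodes in both libraries) were left out; Cd74 and Fcer1g are among these 12. Up to 4 genes were named per list, with bounds furthest from 0. Gbp7, Gbp9, Irgm1, H2-K1, Psmb8, Isg15, Ifngr2, Ciita, Serping1, Neat1 and the uneven genes were named after their values were seen. Some listed genes are not reported here. Spans and positions are from GENCODE M21 on mm10. Alternatives are in the closing section. Python 3.11.15, numpy 2.4.6, scipy 1.17.1 and pandas 2.3.3 were used.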

Additional observations from a re-analysis of the deposited data

Results flagged for a closer look

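The genotype ratio of 2 listed genes was past 1.5-fold in opposite directions in Malat1-poor and Malat1-rich lymphatic barcodes, with both counting intervals off 0. Ccl2 had a log2 ratio of Cre plus over Cre minus of −1.67 [−2.05, −1.30] in the Malat1-poor barcodes and 1.71 [1.19, 2.29] in the Malat1-rich ones. Its Malat1-poor Cre minus UMIs were concentrated, with 146 of 166 in 10 barcodes. Cmpk2 stood at −1.24 [−1.98, −0.52] and 1.28 [0.34, 2.42], from 30 and 39 UMIs in the Malat1-poor and 333 and 9 UMIs in the Malat1-rich barcodes. The difference between the classes was not tested, since each genotype is 1 library.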

How the results depend on the processing

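No paired analysis was possible because each genotype is 1 library and the labels give no replicate numbers. Across 71 results, 15 alternatives gave 962 values, of which 868 stayed the same, 90 moved and 4 reversed. Of the alternatives 2, without barcodes carrying Cxcl9 and without those over 1% haemoglobin, were chosen after seeing the data. A value stayed the same if it lay within the counting interval of the reported value. For a list median that interval was of its middle gene or genes, and a count of genes had to stay within 1.5-fold. The causes of the changes were not tested. Reversed were Ptprm (−0.039 with equal weight per barcode and −0.44 thinned to 2000 UMIs), and, thinned, Ifngr1 (1.28) and Samsn1 (−0.53). Ifngr2, whose reported interval holds 0, also changed sign when thinned (−0.47). Genes at least 1.5-fold higher and lower in Cre plus numbered 361 and 236. They were 98 and 87 when thinned, 127 and 96 with at least 100 UMIs per gene and 94 and 32 at 2-fold, where fewer genes are tested or the threshold is higher. Equal weight gave 368 lower, and leaving out barcodes with macrophage or T and NK UMIs 216 higher. The class II sum was −3.61 thinned, and the chemokine sum −3.27 in members with no cycling gene and −1.41 without barcodes carrying Cxcl9, where the GTPase median was −0.66. The Malat1-poor share of Cre plus was 42.4% with a panel sum of at least 10, 57.5% with no cycling gene and 40% with at least 1000 genes.

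For Malat1-poor over Malat1-rich, values relative to the median gene were 0.99 and −0.34 (mitochondrially encoded), 1.92 and 1.81 (ribosomal) and −3.13 (nuclear RNAs, Cre plus). Ribosomal medians in Cre plus were otherwise 1.20 with equal weight, 1.24 thinned, 1.15 with no cycling gene and 1.01 with at least 1000 genes. Nuclear RNAs in Cre plus were −5.84 with equal weight, −4.99 thinned and −5.57 with Malat1 under 0.05%, and −8.75 thinned in Cre minus. Mitochondrial medians in Cre minus were 0.16 with equal weight, 0.11 thinned, −0.45 with a mitochondrial share under 5%, −0.26 with no cycling gene and −0.20 without macrophage or T and NK barcodes. In Cre plus they were −0.016 with a share under 5% and −0.010 with a panel sum at least 5 times each other panel. Depth limits single genes: at 2000 UMIs per barcode most named genes have few UMIs.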
